A study of Mus musculus with 14 samples.

Results

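Haemogenic endothelium (HE) cells of the E10 mouse aorta are the endothelial cells that had switched on the Gfi1 reporter and were sorted before they carried c-kit at their surface. They were taken as every column of the E10 table whose name starts with the HE label and plate 20 or plate 21, a rule that used no measured value. It gave 98 cells, 37 on plate 20 and 61 on plate 21, out of 546 E10 cells and 1121 single cells in the whole series.

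The study sorted cells singly along the path from aortic endothelium to blood and sequenced them with CEL-Seq, which barcodes the mRNA of each cell before pooled amplification. At E10, with 28 to 32 somite pairs, the same table held 43 endothelial cells that are not haemogenic (non-HE, plates 3 and 4), 191 cells in endothelial-to-haematopoietic transition (EHT, plates 10, 12 and 24), 73 cells of intra-aortic haematopoietic clusters (IAHC, 1 plate) and 141 haematopoietic stem and progenitor cells of the yolk sac (YS HSPC, 2 plates). Non-HE cells were sorted as Cdh5+ Gfi1- Gfi1b- c-kit-, HE cells as Cdh5+ Gfi1+ Gfi1b- c-kit- and EHT cells as Cdh5+ Gfi1+ Gfi1b- c-kit+, from ICR embryos whose genotype is labelled Gfi+/tomato/ Gfi1b+/GFP, knock-in reporters that replace a copy of each gene. IAHC cells (c-kit+ CD31+) and YS HSPCs (c-kit+) came from wild-type C57BL/6 embryos. The authors kept only IAHC cells with more than 1 Gpr56 transcript. They also removed IAHC cells in which a gene of non-IAHC cells had more than 2 transcripts. All but the YS HSPCs came from the aorta-gonad-mesonephros region (AGM), pooled over embryos, so embryo pool, strain and plate are confounded with population. A second table held E11 cells (over 40 somite pairs) of the same reporter, of which 30 non-HE, 46 HE and 46 EHT cells were used.

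Each E10 cell had been brought to 3000 transcripts, so the 98 HE cells held 294000 transcripts and depth did not differ between cells. Levels are given as transcripts per cell, the mean over cells out of 3000, with exact 95% Poisson intervals. Shares of cells have exact 95% Clopper-Pearson intervals, and both kinds cover counting error only. Each population is 1 sample, and neither plates nor cells are replicates, so no test was possible and no p-value is given. A gene was compared where its mean over both populations was at least 0.3 transcripts per cell. This minimum takes in genes that are high in 1 population alone, so for most gene lists the means of all listed genes, whatever their level, are counted as well. A gene was called where the means, each raised by 0.1, differed by at least 2-fold and no plate of either population overlapped a plate of the other. Log2 ratios are on this raised scale, which understates the change of low genes. Where a population held 0 transcripts, a floor of 3 transcripts over all its cells was used. Where a gene was found in 0 cells, the limit given is likewise 3 cells of the total, and it limits cells with a transcript, not cells that express the gene.

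Several libraries stood apart from the rest. The column names of the non-HE plates read early E11 although the label of that sample gives E10, and those of EHT plates 10 and 12 read late E10, while the HE plates and EHT plate 24 read E10.5. At E11 the HE and EHT columns read late E11, as do 19 of the 30 non-HE cells (plate 19), while the other 11 (plate 1) read E11.5. The labels were followed, and stage and population therefore cannot be told apart in the comparison of HE with non-HE at E10. The non-HE plates also differed most between themselves: 278 of 2325 genes (12%) differed at least 2-fold between plates 3 and 4, against 89 of 2360 genes (3.77%) between the HE plates, 58 of 2320 (2.5%), 49 of 2306 (2.12%) and 25 of 2348 (1.06%) between pairs of EHT plates and 5 of 2257 (0.222%) between the YS HSPC plates. Plates with fewer cells have a larger counting error, and the non-HE plates held 28 and 15 cells.

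Within HE, 3 cells of plate 21 held at least 4 markers of another cell type. The cell in well 76 held 11 transcripts of 6 macrophage markers and 15 of 23 haematopoietic genes listed, with no Cdh5 and 0 of the 6 HE markers. The cell in well 79 held 13 transcripts of 4 epithelial markers, including 6 of the 10 Epcam transcripts and 28 of the 35 Apoa1 transcripts found in all HE cells, and no Cdh5. The cell in well 40 held 12 transcripts of 4 mesenchymal markers, among them 8 of 21 Col3a1 transcripts. At least 4 mesenchymal markers were also held by 3 of 43 non-HE cells and 1 of 191 EHT cells. The cell in well 40 was 1 of 4 HE cells with at least 10 transcripts of mesenchymal markers, against 1 cell in non-HE and 1 in EHT. The others were rich in Acta2, smooth muscle actin, with 17 and 9 transcripts in wells 35 and 36 of plate 20 and 30 in well 73 of plate 21, and held 2 to 7 transcripts of Cdh5. A further sign was Kcnq1ot1, a long noncoding RNA of an imprinted region, with a median of 1 transcript per HE cell but 102 in well 2 and 27 in well 79 of plate 21. In non-HE 4 cells, all on plate 3, held 35 to 191. These cells also held most of the Grk4 and Nkain3 transcripts of their plates. Erythroid transcripts also differed by plate. Of 11 erythroid markers in the table, HE held 68 transcripts (0.694 per cell, Hbb-y the most abundant at 0.306), of which 3 lay on plate 20 (0.0811 per cell) and 65 on plate 21 (1.07 per cell, in 39 of 61 cells, at most 6 in a cell). Their summed level was 0.116 in non-HE, 0.0471 in EHT and 1.6 in IAHC, and Hba-a2, Alas2, Klf1 and Gata1 were at 0 in HE. Their part in the results was not tested. Of the 98 wells, 24 well numbers occurred on both HE plates, and 0 cells held identical values.

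Haemogenic endothelium is the short-lived layer of the aortic wall from which haematopoietic stem cells bud. Its cells start as arterial endothelium, joined by vascular junctions and patterned by Notch and blood flow, and then turn on Runx1 and its target Gfi1, which silences the endothelial programme. As the transition proceeds the cells round up, gain c-kit and CD45, and enter the clusters that cover the aortic lumen.

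The label was first set beside its 6 markers, which were chosen with earlier results of these data known. Gja5 and Gja4 encode the connexins of arterial gap junctions, Cdh5 the cadherin that holds endothelial cells together, Gpr56 an adhesion receptor of haematopoietic stem cells, Hapln1 a protein that links hyaluronan to proteoglycans, and Neurl3 a ubiquitin ligase. In HE, Gja5 was at 7.51 transcripts per cell on plate 20 and 5.59 on plate 21, Gja4 at 3.95 and 4.38, and Cdh5 at 4.14 and 4.87. Gpr56 was at 0.919 and 0.984, Hapln1 at 0.676 and 0.836, and Neurl3 at 0.541 and 0.508. The HE plates thus held all 6 markers at like levels, with Gja5 the furthest apart.

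Across populations the markers followed several courses. Hapln1 also stands in the arterial list used further on. Gja5 averaged 6.32 transcripts per cell in HE (5.83 to 6.83), 4.05 in non-HE (3.47 to 4.69), 0.539 in EHT, 0.123 in IAHC and 0 in YS HSPCs. Gja4 went from 5.21 in non-HE to 4.21 in HE and 0.686 in EHT, and Cdh5 from 7.30 to 4.59 and 2.10. Hapln1 was at 0.093 in non-HE (0.0253 to 0.238), 0.776 in HE (0.611 to 0.971), 0.654 in EHT and 0.26 in IAHC. Neurl3 was at 0.0465 in non-HE (2 transcripts), 0.52 in HE and 0.696 in EHT. The log2 ratio of Neurl3 between HE and non-HE was 3.48 by counts alone (1.56 to 6.57), but its mean over both populations was too low for it to be compared. Gpr56 was at 0.0698 in non-HE, 0.959 in HE and 3.04 in EHT. Between HE and non-HE the log2 ratios of Gja5 (0.63), Gja4 (-0.30) and Cdh5 (-0.66) were below the call, and without non-HE plate 3 those of Gja4 and Cdh5 were 0.03 and -0.30. Hapln1 and Neurl3 had in HE a level whose interval overlapped that of EHT, unlike Gpr56.

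Cell by cell, Gja5 was found in 86 of 98 HE cells (87.8%, 79.6 to 93.5), 36 of them on plate 20 and 50 on plate 21, and in 33 of 43 non-HE cells (76.7%). Hapln1 was found in 46 HE cells (46.9%) and 4 non-HE cells (9.30%), and Neurl3 in 36 HE cells (36.7%) and 1 non-HE cell (2.33%). In YS HSPCs, which should lack endothelial genes, Gja5 was found in 0 of 141 cells, which allows up to 2.13% of cells with a transcript, Gja4 and Cdh5 in 3 cells each (2.13%), Hapln1 in 4 (2.84%) and Neurl3 in 9 (6.38%), at the same depth, but Gpr56 in 125 (88.7%), against 45 of 98 HE cells (45.9%) and 174 of 191 EHT cells (91.1%). At least 4 of the 6 markers were present together in 69 of 98 HE cells (70.4%, 60.3 to 79.2), with 27 of 37 on plate 20 and 42 of 61 on plate 21. The same held for 6 of 43 non-HE cells (14%), 53 of 191 EHT cells (27.7%), 13 of 73 IAHC cells (17.8%), which had been kept for 1 of the markers, Gpr56, and held it in 73 of 73 cells, and 0 YS HSPCs. All 6 were seen in 10 HE cells (10.2%), 5 EHT cells (2.62%) and no non-HE cell. The combination was thus most frequent in HE, while Gpr56 alone was found in a smaller share of HE cells than of EHT, IAHC or YS HSPC cells. Gpr56, Hapln1 and Neurl3 were found in 2, 4 and 1 of 43 non-HE cells, so few non-HE cells could hold 4 markers. Because the markers were chosen with earlier results of these data known, these shares are no independent support for the label.

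**Figure D1:**
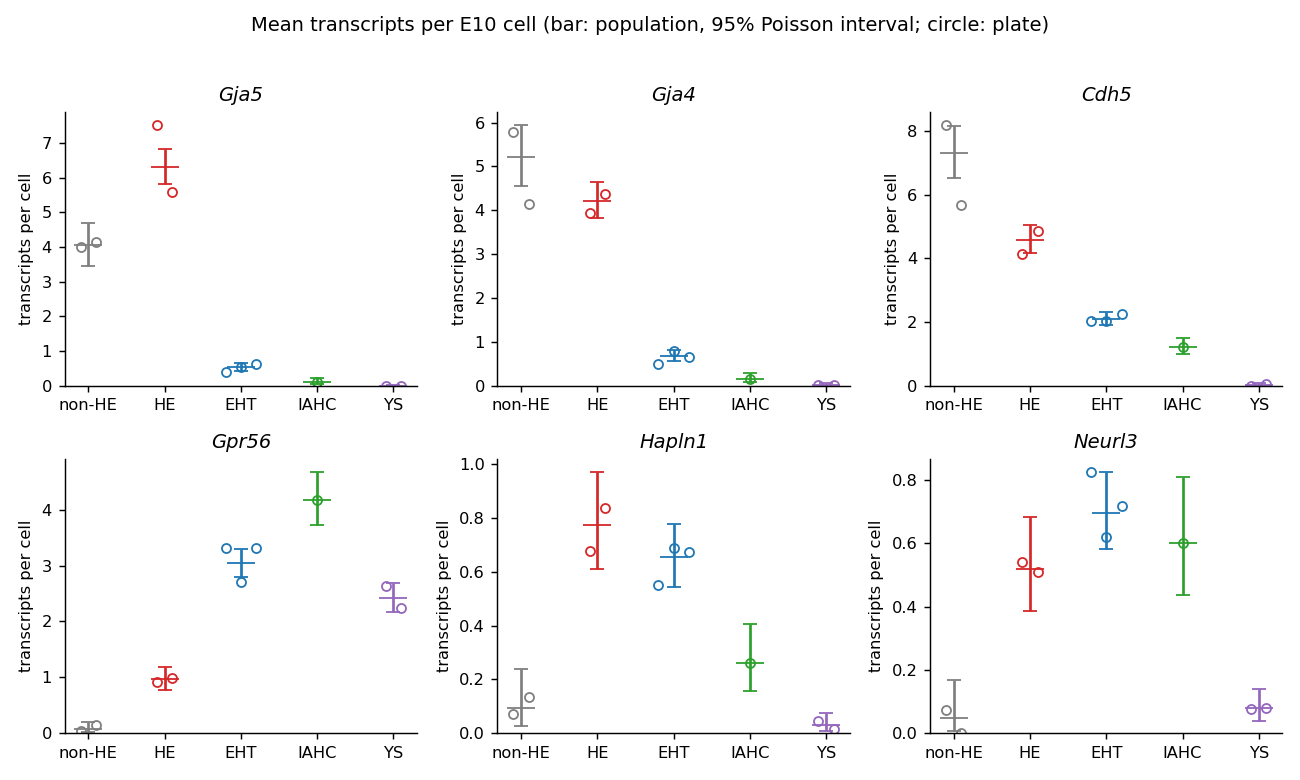
Mean transcripts per cell (vertical axis) of the 6 HE markers in each E10 population (horizontal axis), with the population mean as a line, its exact 95% Poisson interval as a bar and each plate as a circle. Gja5 and Gja4 stood at 3.95 to 7.51 on the HE plates and at means of 0.539 and 0.686 in EHT, while Hapln1 and Neurl3 were at means of 0.093 and 0.0465 in non-HE and at 0.508 to 0.836 on the HE plates.

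The genes used for the sort gave a check of the label. Gfi1, the repressor whose reporter defined HE, was at 0.439 transcripts per cell and in 27 of 98 HE cells (27.6%), against 0.0233 and 1 of 43 cells in non-HE. Gfi1b, its paralogue, was found in 0 of 98 HE cells, which allows up to 3.06% of cells with a transcript, and in 19 of 191 EHT cells (9.95%). Kit was at 0.265 in HE, in 19 cells (19%), although these cells were sorted without c-kit at their surface.

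Promoters of the markers are shown because the levels of the markers parted between the populations. Of the 6 markers, 5 had an entry in the RefSeq promoter table (GRCm38.p6), each a window of 300 bases that begins before the start of a transcript and ends inside the gene. The letters searched on both strands were TGTGGT for Runx factors. For Gata factors AGATAA was taken, which these proteins bind in many promoters. CCGGAA stood for the Ets family. The SoxF family was given AACAAT, and matches are in capitals. Gja5 lies on chromosome 3 at 97032402 to 97053634 and its window is chr3:97032152-97032451 (+). Gja4 lies on chromosome 4 with the window chr4:127313990-127314289 (-). Neither window held a match.
Gja5: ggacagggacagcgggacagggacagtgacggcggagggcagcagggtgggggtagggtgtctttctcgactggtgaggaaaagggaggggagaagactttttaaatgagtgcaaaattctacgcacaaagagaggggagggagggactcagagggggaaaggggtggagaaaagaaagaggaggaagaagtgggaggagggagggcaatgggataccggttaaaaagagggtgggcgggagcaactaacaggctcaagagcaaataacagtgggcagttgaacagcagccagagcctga
Gja4: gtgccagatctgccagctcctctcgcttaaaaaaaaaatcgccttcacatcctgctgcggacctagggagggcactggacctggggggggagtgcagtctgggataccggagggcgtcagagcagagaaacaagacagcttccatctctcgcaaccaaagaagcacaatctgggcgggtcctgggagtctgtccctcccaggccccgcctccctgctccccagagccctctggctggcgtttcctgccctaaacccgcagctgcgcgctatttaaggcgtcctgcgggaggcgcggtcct

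Of the haemogenic markers, Hapln1 (chromosome 13, 89540529 to 89611832) has the window chr13:89540386-89540685 (+), with 1 Runx match. Neurl3 (chromosome 1, 36264602 to 36274674) has the window chr1:36273376-36273675 (-), with 1 Gata match and 1 Ets match, which are printed here in their reverse complement. Gpr56, listed by RefSeq as Adgrg1 on chromosome 8, has 2 windows without a match, and Cdh5 lies on chromosome 8 at 104101613 to 104144504. Of all 32851 promoters, 16.8% held the Runx letters, 11.2% the Gata, 14.9% the Ets and 10.7% the SoxF letters, and 44.4% held at least 1 of them. The matches describe these windows and no more.
Hapln1: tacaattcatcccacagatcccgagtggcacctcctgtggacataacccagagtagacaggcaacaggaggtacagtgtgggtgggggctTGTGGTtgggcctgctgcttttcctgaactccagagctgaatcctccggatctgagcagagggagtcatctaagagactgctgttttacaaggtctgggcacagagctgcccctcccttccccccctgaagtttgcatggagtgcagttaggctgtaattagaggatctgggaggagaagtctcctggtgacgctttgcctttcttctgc
Neurl3: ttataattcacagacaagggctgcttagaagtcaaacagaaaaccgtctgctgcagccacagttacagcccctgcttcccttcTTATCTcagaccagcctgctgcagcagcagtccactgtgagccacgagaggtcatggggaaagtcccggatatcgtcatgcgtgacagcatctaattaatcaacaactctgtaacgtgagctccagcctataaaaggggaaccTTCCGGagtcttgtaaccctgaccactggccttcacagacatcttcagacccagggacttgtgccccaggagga

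HE was then set against non-HE, the endothelium of the same region that had not switched on Gfi1, to ask what marks the start of haemogenic fate. HE had more transcript of 3 of 13 S phase and 4 of 11 G2/M genes compared, and less of 5 of 17 matrix, 3 of 6 flow-responsive and 4 of 7 immediate early genes. Of the arterial, Notch and junction lists few or no members were called. Of 2307 genes compared, 42 were higher in HE (1.82%) and 63 were lower (2.73%), together 4.55%, with a median log2 ratio of 0.05. They numbered 53 and 77 without cells that held at least 10 Kcnq1ot1 transcripts, 90 and 110 without HE plate 21, 95 and 152 without non-HE plate 3, and 81 and 106 without non-HE plate 4. With all plates kept and no condition on them, 43 genes were higher and 77 lower. Why the counts were larger without a plate was not tested. Since the non-HE columns are named early E11, none of these differences can be assigned to population rather than stage.

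Among the genes higher in HE, Gpr56 and Hapln1 had the largest ratios. Gpr56 rose with a log2 ratio of 2.64, or 3.78 (2.19 to 6.08) by counts alone, since non-HE held 3 transcripts. Hapln1 rose with a log2 ratio of 2.18. Slc18a2, the vesicular transporter of monoamines, was at 0.107 and 0.133 transcripts per cell on the non-HE plates and at 0.919 and 0.623 on the HE plates, a log2 ratio of 1.95. It was found in 52 of 98 HE cells and 3 of 43 non-HE cells. Gsta4, a glutathione transferase that clears lipid peroxidation products, was at 0.163 in non-HE and at 1.05 and 0.656 on the HE plates (1.79). Prcp, a lysosomal carboxypeptidase that acts on angiotensin and kinin peptides, went from 0.256 to 0.99 (1.61), Nt5dc2 from 0.209 to 0.816 (1.6), and Slc12a2, which carries sodium, potassium and chloride into cells, from 0.233 to 0.745 (1.35). Of 8 haemogenic surface genes compared, 1 was higher (Gpr56) and 1 lower (Cd34), with 6 above 0 and a median of 0.24. Of all 15 listed, 11 had the higher mean in HE and 4 the lower (median 0.39).

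Other genes with a large excess in HE act in the nucleus, although no list of such genes was fixed and the examples are single genes. Jarid2, which recruits the Polycomb repressive complex, was at 0.25 and 0.2 transcripts per cell on the non-HE plates and at 0.865 and 0.934 on the HE plates (log2 ratio 1.60). Uhrf1, which keeps DNA methylation through replication, was at 0.186 in non-HE and 0.704 in HE (1.49). Lbr, the receptor that ties heterochromatin to the nuclear lamina, went from 0.163 to 0.643 (1.5), and Snrpd1, a core protein of the spliceosome, from 0.326 to 1.01 (1.38). Hmga2, a chromatin protein of fetal stem cells, was at 1.21 and 1.27 on the non-HE plates and at 3.3 and 2.9 on the HE plates (1.24). Of 10 transcription factors of the haemogenic programme that could be compared, 1 was higher in HE, Bcl11a (0.186 to 0.571, 1.23), a transcriptional repressor needed for lymphoid development, and 1 was lower, Lmo2 (1.63 to 0.704, -1.10), the bridging protein of the Tal1 complex. The median over the 10 was 0.38, and of all 22 listed, 16 had the higher mean in HE and 5 the lower (median 0.63). Tal1 (0.69), Lyl1 (0.97) and Gata2 (-0.26) did not pass, and Runx1 was too low in both populations to be compared, at 0.245 in HE and with 1 transcript in non-HE.

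The cell cycle genes that were called all pointed up in HE. Of 13 S phase genes compared, 3 were higher in HE and 0 lower (median log2 0.77), namely the helicase subunits Mcm4 (0.233 to 0.571) and Mcm5 (0.256 to 0.704), and Uhrf1. Of 11 G2/M genes, 4 were higher and 0 lower (median 0.80). These were Top2a, the topoisomerase that untangles chromosomes (0.372 to 0.939), Ccna2 (0.186 to 0.622) and Ccnb2 (0.233 to 0.571), the cyclins of S phase and mitosis, and Ube2c, which tags cyclins for destruction (0.372 to 0.878). Both medians lay above that of all genes, 0.05, and of all listed genes 20 of 20 S phase and 18 of 22 G2/M genes had the higher mean in HE. The summed level of all S phase genes was 6.42 transcripts per cell in non-HE, 13.6 and 12 on the HE plates, 16.1 in EHT and 17.9 in IAHC. The G2/M genes summed to 5.02 in non-HE, 11 and 8.70 on the HE plates, 9.30 in EHT and 11.9 in IAHC.

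The level was not shared evenly among HE cells. S phase genes had a median of 9 transcripts per HE cell (1 to 40), against 3 in non-HE, 15 in EHT and 16 in IAHC. G2/M genes had a median of 4 (0 to 49), with none in 14 HE cells, against 2 in non-HE and 5 in EHT. As shares of all transcripts, S phase genes made up 0.421% in HE (0.453% on plate 20 and 0.402% on plate 21) and 0.214% in non-HE, and G2/M genes 0.319% in HE and 0.167% in non-HE. Since transcript sums do not place a cell in a phase, no phase was called. Among other growth genes, 1 of 9 of glycolysis was called, Slc2a1, the glucose transporter (0.279 to 0.816, log2 1.27), with a median of 0.45 over the 9. Of 9 fetal growth genes 1 was called, Hmga2, with a median of -0.43 over the 9. Of all listed, 13 of 13 glycolysis genes had the higher mean in HE. Of all 14 fetal growth genes, 6 had the higher mean and 8 the lower (median -0.16).

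The 4 largest falls were in genes of the matrix list. Fbln5, a fibulin that organises elastic fibres, was at 1.64 and 2.6 transcripts per cell on the non-HE plates and at 0 in all 98 HE cells, at least 64.6-fold lower against the floor. Eln, elastin itself, was at 2.43 and 7.6 on the non-HE plates and at 0.0811 and 0.131 on the HE plates, a log2 ratio of -4.35. Without non-HE plate 3 this became -5.18, and without plate 4 -3.57. Mgp, which keeps the vessel wall from calcifying, went from 1.67 to 0.0306, or 3 transcripts, with a log2 ratio by counts of -5.77 (-8.08 to -4.17). Fbln2 went from 1.95 to 0.122 (-3.21, and -4.01 without HE plate 21), Bgn, a small proteoglycan, from 0.767 to 0.0714 (-2.34), Htra1, a secreted protease, from 1.4 to 0.245 (-2.14), and Ltbp4, which tethers latent TGF-beta, from 2.72 to 0.582 (-2.05). Other genes of elastic fibres did not follow. The fibrillin Fbn1 was at 1 in non-HE and 0.827 in HE (-0.25), and Fbn2 at 0.814 and 1.30 (0.61), and neither was called. Both were chosen after their values were seen.

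Over the 17 matrix genes compared, 5 were lower (Fbln5, Fbln2, Eln, Mgp and Bgn) and 1 was higher (Hapln1), with a median of -0.61, which does not change with Fbln5 at its bound. Of all 18 listed, 14 had the lower mean in HE and 3 the higher. The whole list summed to 52.2 in non-HE and to 37.4 and 32.5 on the HE plates. At E11, Eln was at 3.30 transcripts per cell in non-HE (2.82 to 3.84) and 3.65 in HE (3.24 to 4.11), and Fbln5 at 1.5 (1.18 to 1.88) and 1.53 (1.26 to 1.83), after scaling to the E10 depth. Against the non-HE plate whose name gives the same stage as HE, late E11, Eln was at 3.65 and 3.38 and Fbln5 at 1.53 and 1.71, with log2 ratios of 0.11 and -0.15. The deficit of both genes at E10 was thus not seen at E11. Whether it goes with stage or with the embryo pool cannot be told apart.

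Cav1, the coat protein of caveolae, was at 1.89 and 1.73 transcripts per cell on the non-HE plates and 0.189 and 0.311 on the HE plates, a log2 ratio of -2.41, and was the only caveolar gene of 4 to be called. Of these 4 genes 2 lay above 0, with a median of -0.38, and the list summed to 5.77 in non-HE and 4.27 in HE. At E11 Cav1 was at 1.4 in non-HE and 1.12 in HE. Of 6 flow-responsive genes, 3 were lower in HE (median -1.10): Klf4 (1.23 to 0.204) and Klf2 (2.86 to 0.949), the transcription factors induced by shear stress, and Cyr61, a secreted matrix protein (0.581 to 0.173). Klf2 differed between the HE plates, at 1.43 on plate 20 and 0.656 on plate 21. Nos3, the endothelial nitric oxide synthase (-0.17), and Edn1, endothelin (-0.88), did not pass. Of all 8 listed, 7 had the lower mean in HE. Of 12 immediate early and heat shock genes 7 reached the minimum, most of them through non-HE, and 4 of these were lower (median -1.36), namely Fos (1.4 to 0.265), the phosphatase Dusp1, the RNA-binding protein Zfp36 (0.651 to 0.102) and the nuclear receptor Nr4a1. All 12 had the lower mean in HE (median -1.25).

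Endothelial genes were mostly not called but lay lower in sum. Of 23 pan-endothelial genes 3 were lower in HE, Cd34 (5.96 and 7.33 on the non-HE plates, 3.11 and 2.51 on the HE plates), Kdr (0.488 to 0.194) and Vwf. Of the 23, 5 lay above 0, with a median of -0.40, and the list summed to 67.1 transcripts per cell in non-HE against 49.7 and 45.8 on the HE plates. Of 19 arterial genes Hapln1 was higher and Fbln5 and Eln were lower (median -0.35), all of them also in the matrix list, and the arterial sum was 37.9 transcripts per cell in non-HE against 31.0 and 27.1 on the HE plates. None of 10 Notch genes (median -0.33) and none of 12 junction genes (median -0.28) was called. Most lay below 0, with 2 of the 10 Notch genes, 3 of the 12 junction genes and 4 of the 19 arterial genes above it, and of all listed genes 15 of 19 Notch, 13 of 17 junction, 16 of 21 arterial and 19 of 25 pan-endothelial genes had the lower mean in HE. Dll4, the arterial Notch ligand, was at 0.10, Hey1, a Notch target, at -0.49 and Notch4 at -0.35. Of 9 genes of VEGF, apelin and angiopoietin signalling 3 were lower, Vegfa (0.488 to 0.163), Kdr and Nrp2 (median -0.55), and of 10 genes of BMP and TGF-beta signalling 1 was lower, Smad7, and 0 lay above 0 (median -0.54). Of all listed, 8 of 13 and 16 of 19 had the lower mean in HE. Of 4 venous and lymphatic genes 0 lay above 0 (median -0.96), and all 7 listed had the lower mean in HE (median -0.93). The 1 that was called lower was Nrp2, a receptor of venous and lymphatic vessels, at 0.321 and 1.13 on the non-HE plates and 2 transcripts in HE (log2 by counts -4.89, -8.01 to -2.89). Its log2 ratio of -2.55 became -3.36 without non-HE plate 3 and -1.81 without plate 4. Nr2f2, the transcription factor of vein identity, held 14 transcripts in non-HE and 0 in HE and was too low to be compared.

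Plates and settings weighed on this comparison. Sgk1, a kinase induced by serum, was lower in HE with 2 transcripts (log2 by counts -4.83, -7.96 to -2.83), but its non-HE level came from plate 3 (0.857, against 0.0667 on plate 4), and its log2 ratio was -0.47 without that plate. With 0.5 in place of 0.1 added to the means, 5 genes were higher and 21 lower, and of the 12 genes with the largest excess in HE only Gpr56, Hapln1 and Slc18a2 were still past 2-fold. Sex also differed, with 24 of 43 non-HE cells holding a Y-linked transcript and 0 holding Xist, against 35 and 13 of 98 HE cells, and its part was not tested.

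**Figure D2:**
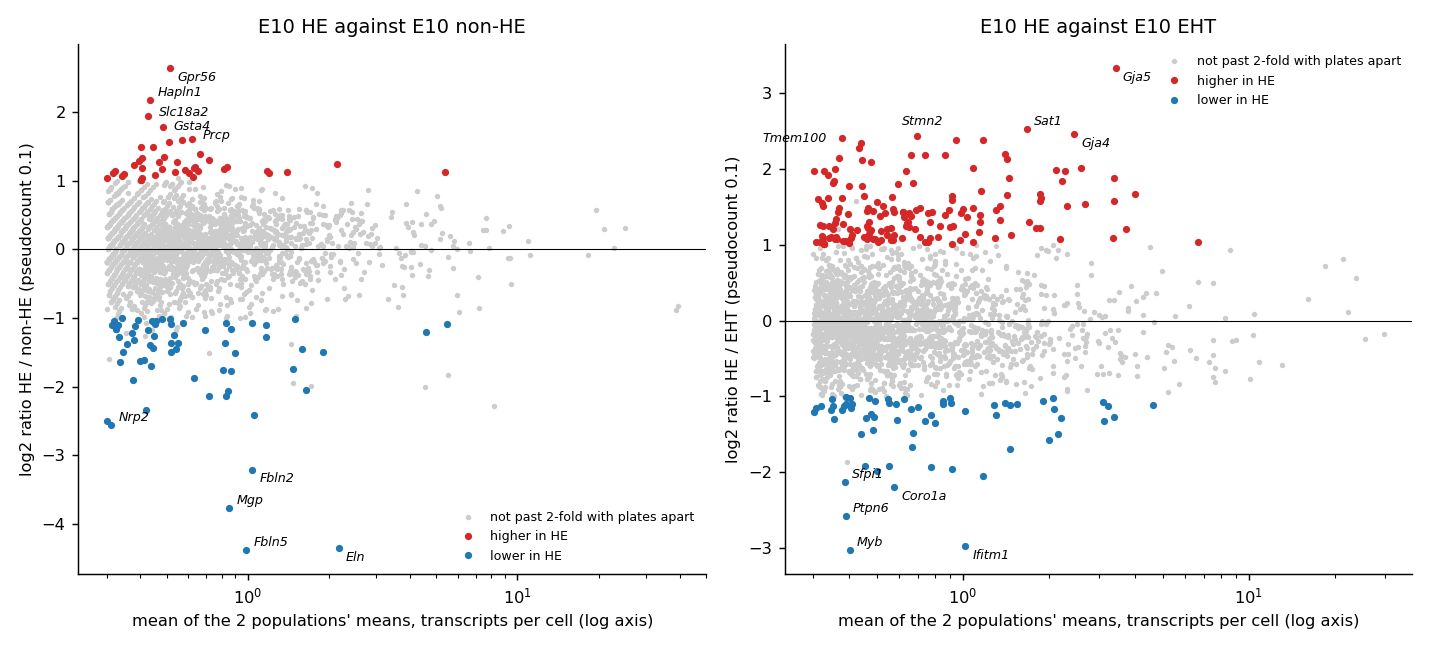
Log2 ratio of HE to non-HE and of HE to EHT (vertical axes, 0.1 added to both means) against the mean level of the gene in transcripts per cell (horizontal axes, log scale), 1 point per gene compared. Called genes numbered 42 higher (red) and 63 lower (blue) against non-HE, with Fbln5 and Eln lowest, and 160 and 66 against EHT, with Gja5 highest.

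HE and EHT cells shared the reporter and the sort except for c-kit, so their comparison asks what differs once c-kit has appeared. Both this and the former comparison use the same HE cells. HE had more arterial, Notch, junction and matrix transcript in sum, and the pan-haematopoietic genes summed to 2.40 transcripts per cell in HE and 7.94 in EHT. Of 2323 genes compared, 160 were higher in HE (6.89%) and 66 were lower (2.84%), together 9.73%, with a median log2 ratio of -0.05. The lower genes numbered 143 without HE plate 21. With EHT plate 24 alone, named E10.5 like the HE plates, 155 genes were higher in HE and 97 lower. Cell cycle genes did not differ by the rule.

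Of 21 arterial genes 14 reached the minimum, of which 13 were higher in HE and 0 lower, with a median of 1.90. Of all 21, whatever their level, 18 had the higher mean in HE and 2 the lower, with a median of 1.64, and the 7 with a mean of at least 0.3 in EHT itself all lay above 0. The sum of the 21 was 28.5 transcripts per cell in HE and 6.01 in EHT, with a median of 29 per HE cell (0 to 59) and 3 per EHT cell. Gja5 (log2 ratio 3.33) and Gja4 (2.46) led. Sox17, a SoxF factor of arterial and haemogenic fate (2.39), was at 2.22 on HE plate 20 and 1.31 on plate 21. Epas1, the endothelial hypoxia factor, was at 2.38 in HE and 0.44 in EHT (2.20), and Nrp1, a co-receptor of VEGF, at 3.53 and 0.916 (1.84). Efnb2, the ephrin of arteries (1.44 and 0.393), and Unc5b, a guidance receptor (1.07 and 0.199), showed the same. The EHT plates held 0.4, 0.529 and 0.344 of Epas1, all below both HE plates at 2.89 and 2.07.

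Of 8 Notch genes 6 were higher in HE (Notch1, Notch3, Notch4, Dll4, Jag1 and Hey1; median 1.36). Most of the 8 reached the minimum through HE, since 2 Notch genes had a mean of at least 0.3 in EHT. The median over all 19 listed Notch genes was 0.46. Dll4 was at 1.11 and 0.656 on the HE plates and between 0.175 and 0.281 on the EHT plates. Jag1 was at 0.837 in HE and 0.12 in EHT (2.09), and Hey1 at 1.28 and 0.204 (2.18). Of 6 BMP and TGF-beta genes 4 were higher (Bmpr2, Smad6, Id1 and Id3; median 1.09), and of 4 flow-responsive genes 3 were (Klf2, Nos3 and Edn1; median 1.34). Most of these flow genes reached the minimum through HE, since 1 of them had a mean of at least 0.3 in EHT. Of all listed, 12 of 19 BMP and TGF-beta genes had the higher mean in HE and 6 the lower (median 0.67), and 7 of 8 flow genes the higher (median 1.15). Endothelial structure followed, with 14 of 21 pan-endothelial genes (median 1.24), 8 of 12 junction genes (median 1.11) and 8 of 11 matrix genes (median 1.41) higher and 0 lower in any of these lists. Of all listed genes, whatever their level, 15 of 19 Notch, 24 of 25 pan-endothelial, 15 of 17 junction and 15 of 18 matrix genes had the higher mean in HE. Nid1, a basement membrane linker, was at 1.46 and 1.51 on the HE plates and 0.1 to 0.297 on the EHT plates, and Col4a1, a chain of type IV collagen, at 4.02 in HE and 1.32 in EHT (1.54).

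Other genes among the 12 with the largest excess in HE came from no single role. Sat1, which acetylates polyamines for their breakdown, was at 3.78 and 2.41 transcripts per cell on the HE plates and 0.275 to 0.469 on the EHT plates (log2 ratio 2.53). Stmn2, a microtubule protein best known in neurons, was at 1.23 in HE and 0.147 in EHT (2.44). Ctsh, a lysosomal protease, was at 2.05 and 0.314 (2.38). Tmem100, a target of BMP signalling in arteries, was at 0.704 and 0.0524 (2.40), and Foxc2, a forkhead factor of vessel development, at 0.786 and 0.0838 (2.27). Sparcl1 (2.34) and Anxa2, an annexin of the plasma membrane (2.19), completed them. Between HE and non-HE their log2 ratios were 0.04 for Sat1, 0.12 for Ctsh, 0.24 for Tmem100, -0.19 for Foxc2, -0.29 for Anxa2 and -0.78 for Stmn2, none of them called, while Sparcl1 was called lower in HE (-1.45).

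Several of the genes furthest below EHT are known from blood cells. Myb, the transcription factor of definitive haematopoiesis, held 1 transcript in 98 HE cells against 0.796 per EHT cell (log2 by counts -6.29, -11.60 to -3.79). Ifitm1, an interferon-induced membrane protein, was at 0.135 and 0.164 on the HE plates and 1.54 to 2.44 on the EHT plates, and Ptpn6, a phosphatase that dampens receptor signals in blood cells, at 0 and 0.0656 against 0.7 to 0.766. Coro1a, which binds actin in leukocytes, was at 0.143 in HE and 1.01 in EHT (-2.19), Lgals9, a galectin, at 0.143 and 0.859 (-1.98), and Alox5ap, which is needed for leukotriene synthesis, at 0.133 and 0.78 (-1.92). Sfpi1, encoding PU.1, was lower by a log2 ratio of -2.12, and its HE transcripts lay in 6 cells, all on plate 21. The log2 ratio was -2.98 without that plate for Sfpi1 and -2.51 for Alox5ap. Of 6 pan-haematopoietic genes compared, 4 were lower in HE and 0 higher (median -1.64), and of all 23 listed, 19 had the lower mean in HE and 4 the higher (median -0.78).

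Outside the blood cell genes, Mycn, a Myc factor, was at 0.297 and 0.328 transcripts per cell on the HE plates and 1.5 to 1.6 on the EHT plates, with 0.0465 in non-HE and 0.151 in IAHC, so that its level was highest in EHT. Phgdh, the entry enzyme of serine synthesis, was at 0.173 in HE and 0.932 in EHT (log2 ratio -1.92), and Nlrp1a, an inflammasome sensor, at 0.398 and 1.96 (-2.05). Of 19 haemogenic transcription factors 4 were lower in HE (Runx1, Myb, Sfpi1 and Mycn) and 1 was higher, Mecom, a regulator of stem cell renewal (1.26 and 0.576), with a median of -0.26 and 5 of the 19 above 0, and of all 22 listed, 17 had the lower mean in HE (median -0.49). Runx1, at 0.245, was found in 17 of 98 HE cells and 98 of 191 EHT cells. Gata2 (0.31), Tal1 (0.19), Hhex (0.16), Hoxa9 (-0.15), Lyl1 (-0.22) and Gfi1 (-0.85) were not called, although Gfi1 was found in 27.6% of HE cells and 50.3% of EHT cells. Hlf, too low to be compared, was found in 8 of 98 HE cells and 73 of 191 EHT cells. Of 17 S phase genes and 12 G2/M genes, none was called, with medians of -0.33 and 0.07, and of all listed, 17 of 20 and 11 of 22 had the lower mean in HE.

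Of the markers, Cdh5, at a log2 ratio of 1.09 between HE and EHT, was at 0.94 without HE plate 21 and at 0.97 with 0.5 added to the means, below the call.

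**Figure D3:**
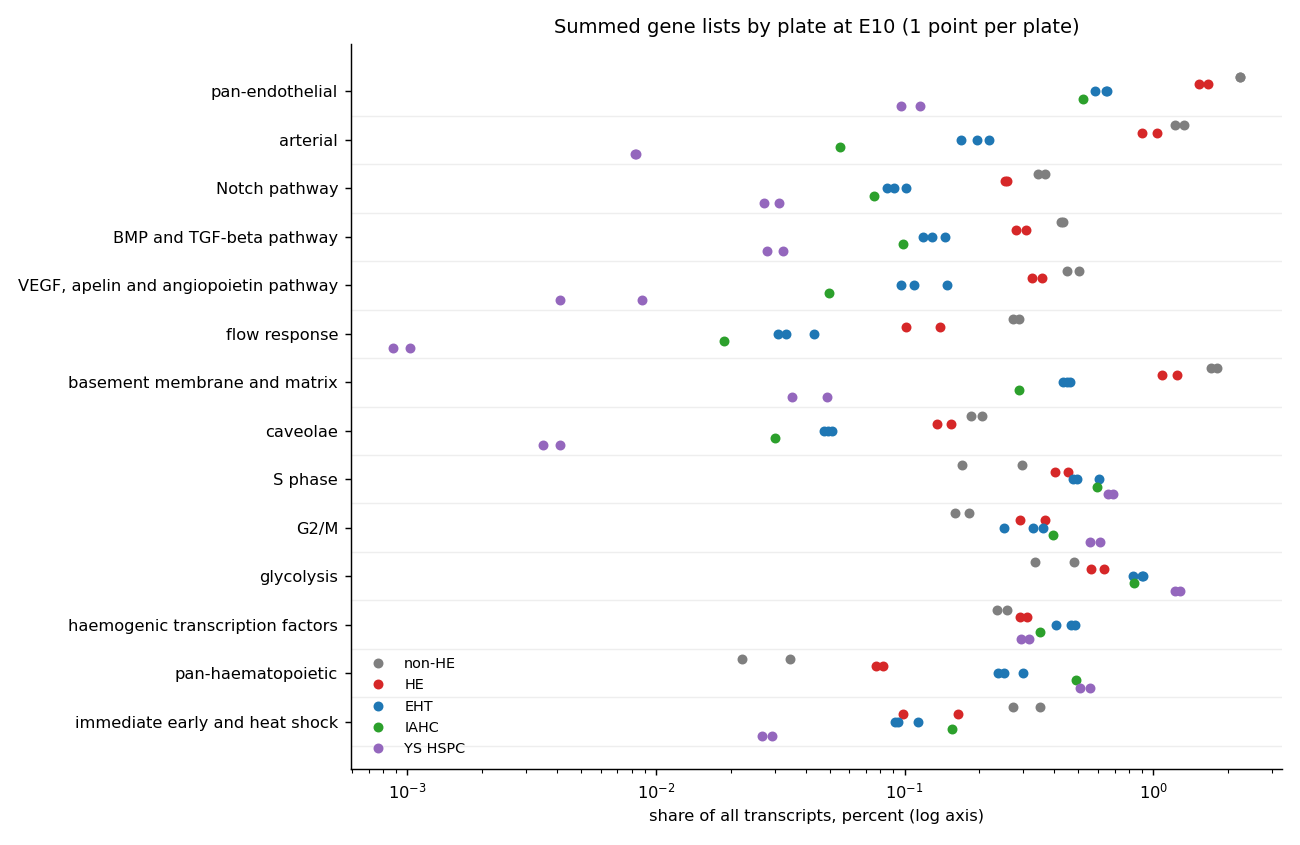
Share of all transcripts taken by each gene list (horizontal axis, percent, log scale), with 1 row per list, 1 point per plate and colours for the populations. The HE plates stood at 1.03% and 0.902% for arterial genes, between non-HE (1.26% over both plates) and EHT (0.200%), and at 0.453% and 0.402% for S phase genes, above non-HE (0.214%) and below EHT (0.537%).

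The last populations of the table, IAHC and YS HSPC, give the blood end of the scale, with the further difference that both came from another strain. Against IAHC, HE had more arterial, endothelial, junction and matrix transcript in sum, while the 23 pan-haematopoietic genes summed to 2.40 transcripts per cell in HE and 14.6 in IAHC. Of 2318 genes compared with IAHC, 275 were higher in HE (11.9%) and 305 were lower (13.2%), together 25%, with a median log2 ratio of -0.10. All 14 arterial genes compared were higher (median 3.23), 15 of 20 pan-endothelial genes (median 1.81), 10 of 12 junction genes (median 1.85), 10 of 11 matrix genes (median 2.01) and 7 of 9 Notch genes (median 1.41), with 0 lower in each list. Of all listed genes, whatever their level, 19 of 21 arterial, 22 of 25 pan-endothelial, 16 of 17 junction, 15 of 18 matrix and 14 of 19 Notch genes had the higher mean in HE. Over all listed genes the median was 2.86 for arterial, 1.80 for pan-endothelial, 1.23 for matrix and 0.52 for Notch genes. The arterial and most Notch genes reached the minimum through HE. In IAHC itself, 0 arterial genes and 1 Notch gene had a mean of at least 0.3, and that Notch gene lay below 0. Of the matrix genes 7 had such a mean in IAHC, with 6 of them above 0. The arterial sum was 28.5 transcripts per cell in HE and 1.64 in IAHC.

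Among single genes, Gja5 (log2 ratio 4.84), Gja4 (4.03), Nrp1 (3.78) and Epas1 (3.77) were furthest above IAHC. Hey1 and Efnb2 held 2 transcripts each in IAHC, with log2 ratios by counts of 5.54 (3.66 to 8.60) and 5.71 (3.83 to 8.77). Mest, an imprinted gene, was at 3.05 and 4.07 transcripts per cell on the HE plates and 0.233 in IAHC (3.51), and Plagl1, an imprinted zinc finger factor, at 1.71 and 0.0685 (3.43). Of 8 fetal growth genes 3 were higher in HE, Igf2, Grb10 and Igf2r (median 0.45). Sox18, a SoxF factor of early vessels, was at 0.432 on HE plate 20 and 1.52 on plate 21, against 1 transcript in IAHC (log2 by counts 6.34, 3.83 to 11.66), and its log2 ratio of 3.41 became 2.23 without plate 21.

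On the other side, 8 of 23 pan-haematopoietic genes reached the minimum, most of them through IAHC, and 7 of these were lower in HE (median -2.40). Of all 23, 21 had the lower mean in HE and 2 the higher, with a median of -1.47. Prtn3, a protease of neutrophil granules, was at 0 in HE and 0.671 in IAHC, at least 21.9-fold lower. Coro1a (-3.41), Rac2, a GTPase of blood cells (0.0408 against 0.699, -2.50), and Cmtm7 (-2.37) were further examples. Slc23a1, a carrier of vitamin C, was at 0.112 in HE and 2.82 in IAHC (-3.78), but EHT plates also differed in it, from 0.069 to 1.5. Hspa1b, a heat shock protein (0.0408 against 0.808, -2.69), Phgdh (-2.68) and Prpf19, a splicing factor (0.327 against 2.12, -2.38), were lower as well. Of 17 S phase genes 4 were lower (Mcm6, Mcm7, Dut and Ung; median -0.63). Of 15 haemogenic transcription factors, Gata2 and Mecom were higher in HE and Runx1, Myb and Sfpi1 lower (median -0.10). Against YS HSPCs, 405 of 2354 genes were higher in HE (17.2%) and 492 lower (20.9%), together 38.1%, with a median of -0.20.

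Genes with their highest level in HE were sought next, as those with a mean of 0.5 or more in HE that was at least 1.5-fold above every other population with every HE plate above every other plate. HE had 15 such genes of 1298 (1.16%), against 145 of 1251 in non-HE (11.6%), 21 of 1254 in EHT (1.67%), 21 of 1290 in IAHC (1.63%) and 213 of 1316 in YS HSPCs (16.2%). Few genes thus passed this rule in HE. At 2-fold 2 genes were left, Lama3 and Cyp26b1. Without cells that held at least 10 Kcnq1ot1 transcripts 13 genes passed, 11 of them among the 15.

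Lama3, a chain of epithelial basement membrane laminin, was at 0.568 and 0.623 transcripts per cell on the HE plates, 0.143 and 0.333 on the non-HE plates, 0.0995 in EHT and 0 in YS HSPCs. It was found in 45 of 98 HE cells (45.9%) and 9 of 43 non-HE cells (20.9%). Cyp26b1, which degrades retinoic acid, was at 1.8 and 1.6 on the HE plates, 0.721 in non-HE, 0.623 in EHT and 0.0548 in IAHC, and was found in 63 HE cells (64.3%). Vegfc, a growth factor of lymphatic vessels, was at 1.06 in HE and 0.628 in non-HE, in 66 HE cells (67.3%). At E11, Lama3 was again higher in HE (0.783) than in non-HE (0.32), a log2 ratio of 1.07, while Cyp26b1 was at 0.887 in HE and 1.2 in non-HE (-0.42).

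Of the others, Gja5, Ldb2, which stabilises LIM protein complexes (0.918 against 0.424 in EHT), Fbn2, a fibrillin of developing vessels (1.30 against 0.814), Crtap, a factor of collagen folding (0.704), and Slc12a2 came from several roles. Gja5 was 1.55-fold over non-HE, near the limit of the rule. The 4 non-HE cells rich in Kcnq1ot1 held at most 1 Gja5 transcript each and lower the non-HE mean. Mllt3, a transcription elongation factor known from stem cell maintenance, was at 0.51 in HE and 0.283 in EHT. Fads1, a fatty acid desaturase (0.847 against 0.521), Gsta4, Klhl13 (0.531), Mbnl2, a splicing regulator (0.541), and Zfp69 (0.735) were the rest, with Crip1 (0.867), whose level was 0.514 on plate 20 and 1.08 on plate 21 and reached 14 transcripts in a cell. Of these 15 genes 9 had promoters in RefSeq, of which 4 held at least 1 of the motif letters searched. The window of Cyp26b1, chr6:84593761-84594060 (-), held none.
Cyp26b1: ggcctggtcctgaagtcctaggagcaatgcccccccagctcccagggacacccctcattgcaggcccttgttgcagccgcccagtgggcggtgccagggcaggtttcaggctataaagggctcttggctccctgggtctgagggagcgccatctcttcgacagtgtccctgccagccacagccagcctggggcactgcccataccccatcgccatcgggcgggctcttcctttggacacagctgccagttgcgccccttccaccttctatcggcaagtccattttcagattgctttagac

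Whether single HE cells had started to transcribe blood genes was read from 23 pan-haematopoietic genes. HE cells held a mean of 1.80 of these genes (1.54 to 2.08) and a median of 1 (0 to 15), with 1.59 on plate 20 and 1.92 on plate 21, against 0.767 in non-HE, 4.8 in EHT, 7.38 in IAHC and 8.44 in YS HSPCs. No gene was seen in 11 HE cells, 1 in 39, 2 in 27, and 3 or more in 21. Only 2 HE cells (2.04%, 0.248 to 7.18) held at least 5, both among the cells with genes of other types, against 94 of 191 EHT cells (49.2%), 63 of 73 IAHC cells (86.3%) and 128 of 141 YS HSPCs (90.8%). Without those 3 cells of plate 21 the HE mean was 1.63 and the highest cell held 4. HE cells therefore lay between non-HE and EHT in the number of these genes per cell. The list summed to 2.40 transcripts per cell in HE (2.30 and 2.46 on the plates), 0.907 in non-HE, 7.94 in EHT and 14.6 in IAHC, and its most abundant gene in HE was Laptm5, a lysosomal membrane protein, at 0.704.

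These genes were unevenly seen. Laptm5 was found in 47 of 98 HE cells (48%) and 15 of 43 non-HE cells (34.9%), and Lcp1, an actin-bundling protein, in 35 HE cells (35.7%) and 9 non-HE cells (20.9%). The actin regulator Was appeared in 12 HE cells. Apart from these, Arhgdib, Ifitm1 and Coro1a, no gene of the list was found in more than 4 HE cells, and Plek was in 0. Arhgdib was at 0.27 and 0.344 transcripts per cell on the HE plates, with 31 transcripts in 26 cells, against 1 transcript in non-HE (log2 by counts 3.77, 1.18 to 9.11) and 0.785 in EHT. Ifitm1 held 15 transcripts in 13 HE cells and 1 in non-HE (2.72, 0.02 to 8.11). In YS HSPCs Ifitm1 was found in 23 of 141 cells (16.3%), near its share of HE cells (13.3%), against 111 cells for Arhgdib and 101 for Coro1a. Coro1a held 14 transcripts in 10 HE cells and 0 in non-HE, and Ptpn6 held 4. These genes were named after their values were seen.

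**Figure D4:**
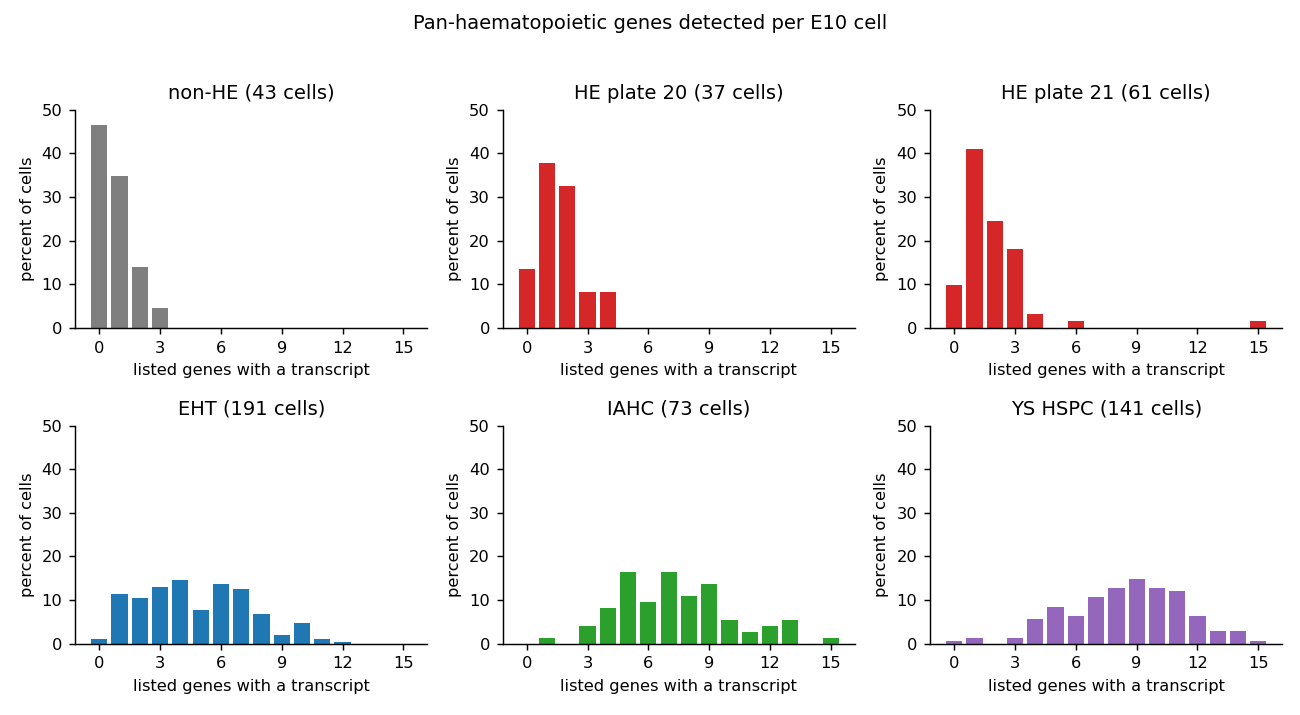
Share of cells (vertical axes, percent) by the number of the 23 pan-haematopoietic genes with a transcript in the cell (horizontal axes), for each HE plate and each other population. HE cells peaked at 1 gene (39 of 98 cells) and 2 cells, both on plate 21, held at least 5, while 94 of 191 EHT cells did.

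Markers of other cell types were counted in HE as well. Macrophage markers (12 genes) summed to 18 transcripts in HE (0.184 per cell, 1 on plate 20 and 17 on plate 21), with Fcgr3 the most abundant at 0.0408, Aif1, Emr1, C1qa and Cd68 at 0, and 0 transcripts in non-HE. Mesenchymal markers (15 genes) summed to 1.97 and 1.84 per cell on the HE plates and 1.93 in non-HE, with Acta2 the most abundant (0.867) and Pdgfrb, Postn, Epha7 and Crabp1 at 0. Epithelial markers (7 genes) held 11 transcripts on plate 20 and 37 on plate 21, led by Krt18 (0.265), with Wt1 and Pax2 at 0. Megakaryocyte markers held 3 transcripts, all of Itga2b, heart markers 3, neural markers 6, and germ cell markers 0. The sort for Cdh5 should remove these types, and their part in the results was not tested, apart from the alternatives that leave out the cells named. Without the cells that held at least 10 mesenchymal transcripts, Acta2 was at 0.309 in HE (0.207 to 0.443) and 0.357 in non-HE (0.200 to 0.589), so that its call against non-HE (log2 1.11) rests on them and the log2 ratio turned to -0.16. It was also 0.47 without non-HE plate 3. Without those cells 49 genes were higher and 69 lower in HE.

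How HE cells differed among themselves was measured as the variance of a gene over its mean across cells, within each plate, which is near 1 for counting error alone. At an equal relative spread between cells this ratio is larger for abundant genes, so the ranking favours them. Over 2342 genes the median ratio was 1.05 on plate 20 and 1.11 on plate 21, and 32 genes reached 2 on both plates. The genes named are the 15 with the highest ratio, taking the lower of the plates. When all 98 cells were ranked together, only 3 of these 15, Acta2, Igf2 and H19, were among the 15 highest, and the others had ranks of 22 to 62.

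Acta2, smooth muscle actin, had the highest ratio (11.2 on plate 20 and 17.4 on plate 21), since its 85 transcripts lay in 22 cells, up to 30 in a cell, and 29 of 37 and 47 of 61 cells held none. Tuba1b (3.12), Tmsb4x (2.93) and Actb (2.80), a tubulin, a thymosin and actin, also varied. Of the cell cycle, Ube2c (3.21, in 31 cells), Pcna, the replication clamp (2.93), Rrm2, which makes deoxynucleotides (2.60, in 36 cells), and Ccnb1, the mitotic cyclin (2.41), were among the 15. H19 (3.78), Igf2 (3.26) and Mest (2.55) are imprinted genes of fetal growth. Igf2 was at 35.9 transcripts per cell on plate 20 and 23.6 on plate 21, and H19 at 33 and 23.8. Of the 23 pan-haematopoietic genes 20 were too low in HE to be ranked, and the other 3 were not among the 15.

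Among markers, Gja5 alone was in this group, with a ratio of 3.24 on plate 20 and 4.22 on plate 21. It was also the most abundant marker in HE, so its rank does not show a larger relative spread than that of the others. Its median was 7 transcripts on plate 20 (0 to 23), where 1 cell held none, and 5 on plate 21 (0 to 19), where 11 cells held none. Sat1 (3.28, in 72 cells, up to 14), Stmn2 (3.16, in 45 cells) and Fn1, fibronectin (2.73), made up the rest.

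**Figure D5:**
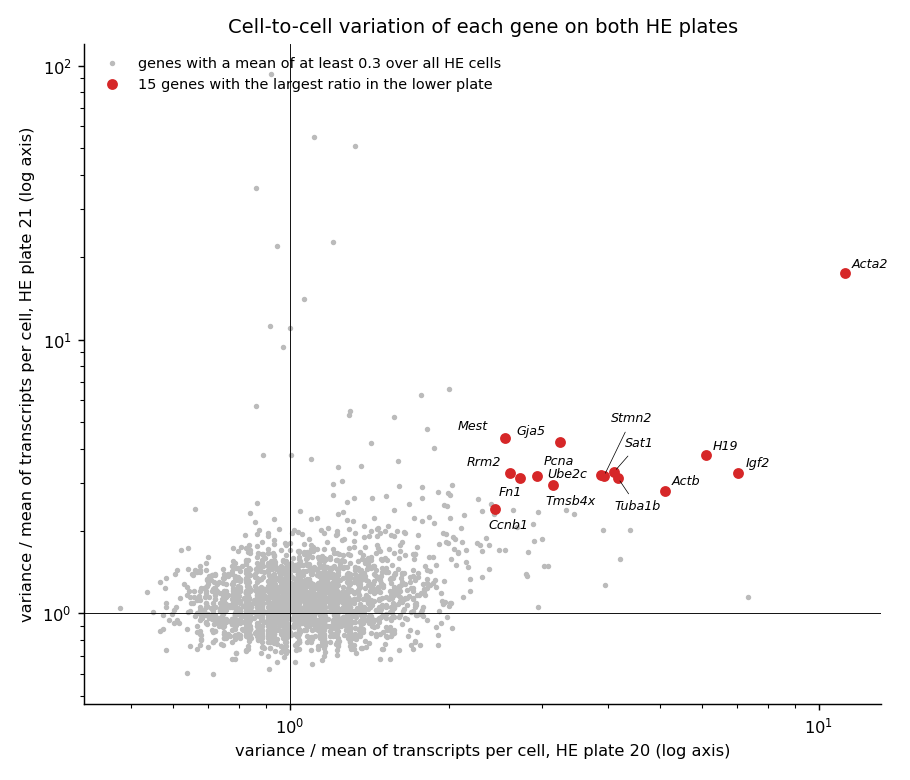
Variance over mean across HE cells for each gene on plate 20 (horizontal axis) and plate 21 (vertical axis), both on log scales, with the 15 most varying genes named. Acta2, at 11.2 and 17.4, was the furthest to the right, most genes lay near the medians of 1.05 and 1.11, and the points high on the left are genes that varied on plate 21 alone, such as Kcnq1ot1 (1.11 and 54.9).

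The HE plates were set against each other for the same reason. Of 2360 genes, 23 were at least 2-fold higher on plate 20 and 66 on plate 21. Bambi, a decoy receptor of BMP signalling, was at 0 on plate 20 and 0.639 on plate 21. Ubb, a ubiquitin precursor, was at 0.108 and 0.918. Pigr, the immunoglobulin transporter of epithelia, was at 0.027 and 0.574, Grk4, a receptor kinase, at 0.0811 and 0.967, and Nkain3 at 0.162 and 1, but these genes came mostly from the cells in wells 2 and 79 that were rich in Kcnq1ot1. Those cells held 5 and 19 of 35 Pigr transcripts of the plate, 29 and 22 of 59 Grk4 transcripts and 46 and 9 of 61 Nkain3 transcripts. Without them plate 21 was at 0.186 for Pigr, 0.136 for Grk4 and 0.102 for Nkain3, and 53 genes were higher on plate 21. Higher on plate 20 were Smo, the transducer of Hedgehog signals (0.595 and 0.164), Uqcrfs1, a subunit of respiratory complex III (1.32 and 0.426), Dctn1, a dynactin subunit (0.757 and 0.18), and Laptm4b (1.3 and 0.475). Genes of this kind should be read as differences between plates, since embryo pool and plate cannot be told apart.

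HE cells at E11 were other cells on another plate, down-sampled by the authors to 5000 transcripts, and their means are scaled to 3000. They held Gja5 at 5.80 transcripts per cell (6.32 in HE at E10), Gja4 at 4.80 (4.21), Cdh5 at 5.13 (4.59) and Gpr56 at 0.783 (0.959). In E11 non-HE, Gja5 was at 3.36, Gja4 at 4.5 and Cdh5 at 4.1. Neurl3 was at 0.326 (0.211 to 0.481) against 0.52 at E10, with 0.04 in E11 non-HE (2 transcripts). Hapln1 was lower than at E10, at 0.209 against 0.776, and stood at 0.26 in E11 non-HE. The E11 non-HE plates differed in Hapln1, at 0.158 on plate 19, named late E11 like HE, and 0.436 on plate 1. The log2 ratios of HE to these plates were 0.26 and -0.80. Of the 42 genes higher in HE than non-HE at E10, 18 had the same side at E11 (42.9%, against 49.5% of all genes) and 5 were past 2-fold (11.9%, against 1.65%), with a median log2 ratio of -0.04. Of the 63 lower genes, 41 had the same side (65.1%, against 50.3%) and 6 were past 2-fold (9.52%, against 1.6%), with a median of -0.13. With late E11 non-HE alone, 20 and 34 genes had the same side and 5 and 7 were past 2-fold. The difference between HE and non-HE at E10 was therefore for the most part not found at E11.

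Above non-HE, the 5 genes past 2-fold again were Gpr56 (log2 ratio 2.46 at E11), Acta2 (1.23), Gsta4 (1.13), Lama3 (1.07) and Slc18a2 (1.05), with Hmga2 at 0.97. No minimum mean was asked of genes at E11. Acta2 was at 0.417 transcripts per cell in HE and at 0.0632 and 0.218 on non-HE plates 19 and 1. Gsta4 was at 0.339, 0.0947 and 0.109 there. The call of Acta2 at E10 rested on cells rich in mesenchymal markers. Gpr56 held 3 transcripts in E11 non-HE, a log2 ratio by counts of 3.71 (2.09 to 6.02). Below non-HE the 6 were Nnat, an imprinted neuronal protein (-2.87), Sgk1 (-2.38), Nrp2 (-2.09), Fos (-1.25), Cyr61 (-1.10) and Mgp (-1.04). Nrp2 held 1 transcript in E11 HE (log2 by counts -4.86, -10.24 to -2.21). The E11 non-HE plates differed in several of these. Against plate 1, named E11.5, Fos was at -0.51, Cyr61 at -0.19, Mgp at 0.54, Acta2 at 0.70 and Lama3 at 0.87, while against plate 19, named late E11, they were at -1.55, -1.44, -1.51, 1.66 and 1.2, and Slc18a2 was at 0.67. Eln (0.14), Fbln5 (0.02), Klf2 (0.35) and Cav1 (-0.30) were not past 2-fold against both plates together. Several cell cycle genes were on the other side, with Mcm5 at -1.12, Ccna2 at -1.37 and Ccnb2 at -1.60.

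Against EHT most of the called genes were on the same side at E11, and fewer were past 2-fold there. Of the 160 genes higher in HE at E10, 159 were on the same side at E11 (99.4%, against 47.8% of all genes) and 96 were past 2-fold (60%, against 6.03%), with a median of 1.14. Of the 66 lower genes, 63 were on the same side (95.5%, against 50.3%) and 28 past 2-fold (42.4%, against 4.6%), with a median of -0.86. Gja5 (2.14), Epas1 (2.10) and Sox17 (1.9) were again far above EHT, and Mycn (-2.58) and Coro1a (-2.24) far below, while Myb was at 0 in HE and 0.730 in EHT. Whether the share of genes on the same side differed between these comparisons was not tested.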

How the data were processed

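Single cells had been sorted into wells and sequenced with CEL-Seq. The authors deposited estimated counts, derived per gene from molecular tags on reads mapped with BWA 0.6.2-r126 to mm10 per the submitters' processing notes, down-sampled to 3000 transcripts per E10 cell and 5000 per E11 cell, and raised by 0.1. The study's methods give 5000 for all cells, which the E10 table does not hold, and the deposited depths were used. Here 0.1 was taken off and nothing else was scaled, except E11 means, multiplied by 0.6. There were 19322 genes and 546 cells at E10, and 19424 genes and 575 cells at E11, of which 453 were not used. No cell was filtered out and no doublet caller was run. The study's own maps show fewer non-HE, HE and EHT cells at both stages, and fewer E10 YS HSPCs, than were used here. Which cells they leave out was not determined.

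Populations were compared by means with a pseudocount of 0.1, a minimum mean of 0.3, a fold of 2 and plates that do not overlap. Named genes were the 12 with the largest ratio per direction, the 15 highest in HE, 6 per HE plate, the 15 most varying and members of the 29 gene lists, named by role; ribosomal, mitochondrial and unnamed gene models were counted but not named. The members and lists were chosen with earlier results of these data known. Alternatives changed the pseudocount, the minimum, the fold, the weighting of plates and the plates or cells kept. The procedures were tested on simulated data. Python 3.11.15, numpy 2.4.6, pandas 2.3.3, scipy 1.17.1 and matplotlib 3.10.9 were used.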

Additional observations from a re-analysis of the deposited data

Results flagged for a closer look

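Of the 105 genes called between HE and non-HE at E10, 6 were past 2-fold in the opposite direction at E11, 3 of them with a mean of at least 0.3 over both populations there. Of all 2307 genes, 38 were past 2-fold higher in HE at E11 (1.65%) and 37 past 2-fold lower (1.6%). Top2a, the mitotic topoisomerase, had a log2 ratio of 1.14 at E10 and -1.33 at E11, where it was at 0.130 transcripts per cell in HE and 0.48 in non-HE. Ube2c, which marks mitotic cyclins for destruction, had 1.05 at E10 and -1.64 at E11 (0.209 and 0.86). Vegfa, the main growth factor of endothelium, had -1.16 at E10 and 1.60 at E11 (0.626 and 0.14). The 3 genes below that mean were Ccna2 (1.34 at E10 and -1.37 at E11), Ccnb2 (1.01 and -1.60) and Mcm5 (1.18 and -1.12). Against the E11 non-HE plates one by one, Top2a was at -1.54 and -0.89, Ccna2 at -0.53 and -2.18, and Mcm5 at -1.32 and -0.69 on plates 19 and 1. The difference between the stages was not tested, and each population is 1 sample at each stage.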

How the results depend on the processing

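The call of Acta2 changed its sign. It was higher than in non-HE (log2 1.11) but at -0.16 without the cells rich in mesenchymal markers, with 0.309 transcripts per cell in HE and 0.357 in non-HE. No other gene called against non-HE, EHT or IAHC changed its sign in the alternatives of pseudocount, weighting of plates, and plates or cells kept, while Gja4 against non-HE, which was not called, went from -0.30 to 0.03 without non-HE plate 3. Of 850 values of single genes under the alternatives 797 stayed within their counting interval and 52 moved, most of them at a pseudocount of 0.5. Of 156 values of counts and shares 104 stayed within 1.5 times or their interval.

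Genes higher and lower in HE than non-HE (42 and 63) numbered 5 and 21 at a pseudocount of 0.5, 110 and 127 at a minimum mean of 0.15, 15 and 26 at 0.6, and 6 and 21 at 3-fold. Leaving out a plate gave 62 to 95 and 76 to 152. Against EHT (160 and 66) they numbered 46 and 19 at a pseudocount of 0.5, 241 and 114 at a minimum of 0.15, 80 and 34 at 0.6, and 47 and 13 at 3-fold, with 149 to 210 and 54 to 143 without a plate. Against IAHC (275 and 305) they were 135 and 78, then 527 and 422 at a minimum of 0.15, 121 and 151 at 0.6, and 145 and 69 at 3-fold, with 287 to 329 and 279 to 341 without a plate. Against YS HSPC (405 and 492) they were 242 and 214, then 794 and 711, then 177 and 269, and 267 and 198, with 412 to 460 and 502 to 539. A lower minimum tests more genes, a higher one fewer, and a larger pseudocount or fold calls fewer by construction.

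The 15 genes highest in HE became 2 at 2-fold, 36 at a minimum of 0.25, 4 at 1 and 3 at a pseudocount of 0.5. Without cells rich in Kcnq1ot1 they became 13, of which 11 were among the 15. Genes higher on plate 20 (23) were 66 at a minimum of 0.15, 8 at 0.6 and 0 at a pseudocount of 0.5, and those on plate 21 (66) 155, 30 and 22. The S phase share ranged from 0.402 to 0.453% and the G2/M share from 0.290 to 0.368% without a plate. Haematopoietic genes per HE cell were 1.4 without Ifitm1 and Arhgdib and 1.59 to 1.92 without a plate. Ranking variation over all cells shared 3 of the 15 genes. The causes were not tested.

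Alternatives chosen after seeing the data left out cells with genes of other types (46 and 70 against non-HE, 170 and 80 against EHT), or those rich in Kcnq1ot1 (53 and 77, 161 and 68) or mesenchymal markers (49 and 69, 160 and 66), left out an E11 non-HE plate (20 to 22 of the higher and 34 to 37 of the lower genes on the same side, 4 to 5 and 7 past 2-fold), or kept EHT plate 24 alone (155 and 97). Counts over all listed genes, whatever their level, were also added then. No paired analysis was possible because each population is 1 sample. With 1 sample per population, differences between embryos could not be measured, and stage, strain, pool and plate are confounded with population. At 3000 transcripts per cell a gene at 0 in HE may still be present at up to 0.0306 transcripts per cell.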

Other observations

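Interferon-induced genes summed to 3.97 transcripts per cell on HE plate 20 and 6.59 on plate 21, against 4.95 in non-HE, 7.13 in EHT and 5.99 in IAHC, and none of 3 compared was called between HE and non-HE. Glycolysis genes summed to 11.6 in non-HE, 19 and 16.8 on the HE plates, 26.2 in EHT and 25.2 in IAHC. In both lists the sum in HE lay below that in EHT. Of the 13 glycolysis genes 12 had the lower mean in HE. Of the 8 interferon-induced genes, 4 had the higher mean in HE and 4 the lower (median log2 0.01). Of the 4 interferon-induced genes compared with EHT, Ifitm1 was the 1 called, and it was lower in HE.

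Fetal growth genes, among them Igf2 and H19, summed to 79.0 transcripts per cell on HE plate 20 and 55.8 on plate 21, between non-HE (108.7) and EHT (44.8). Y-linked transcripts without Xist were seen in 13 of 37 HE cells on plate 20 and 22 of 61 on plate 21, and Xist without them in 4 and 9, with 0 cells holding both, so that each HE plate held cells of male and female embryos.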
